A study of Mus musculus with 4 samples.

Results

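Mature enterocytes, the absorptive cells that line the villi of the small intestine, were examined in single-cell RNA sequencing libraries of intestinal adenomas from C57BL/6 mice aged 11 weeks. A barcode was taken as a cell if it held at least 2000 UMIs (unique molecular identifiers, that is, counted transcripts) from at least 200 genes and at most 20% mitochondrial UMIs. Such a cell was taken as a mature enterocyte if at least 3 of the 5 genes Sis, Lct, Anpep, Mme and Leap2 were detected with a summed count of at least 8 UMIs. It also had to hold fewer than 2 of the villus-tip genes Ada, Slc28a2 and Clca4a, at most 1 UMI of the adenoma genes Prox1, Notum and Nkd1 together, and 0 UMIs of the leukocyte gene Ptprc. The rule selected 2026 of 11263 cells (18%). Because these genes chose the cells, their values in the members are a description and not a result.

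Both groups carried 1 mutant allele of the tumor suppressor gene Apc (ApcMin/+). ApcMin mice were Lef1 +/+, and VApcMinL mice were Lef1 fl/fl and carried Villin-Cre, a recombinase transgene driven in the intestinal epithelium, which includes enterocytes and adenoma cells but not the stroma or the leukocytes. Each group had 2 libraries, and the comparison asks whether the enterocytes of adenomas differ when the Wnt pathway transcription factor Lef1 is targeted. The first replicates of both groups (replicate 1) were prepared with the 10x Genomics 3′ kit version 2 and the others (replicate 2) with version 3, and the tissue of each library was pooled from 3 to 10 tumors that were dissociated and not sorted. A library is therefore a pool of tumors, and nothing in the labels says how many animals it came from, so p-values refer to such pools. The gene test below had the kit as a block. Its p-values thus rest on how closely the 2 within-kit differences matched, not on the spread within a genotype. Values are given below in 1 order: the kit 2 pair first (ApcMin replicate 1, then VApcMinL replicate 1), followed by the kit 3 pair (ApcMin replicate 2, then VApcMinL replicate 2), and libraries are called by their labels.

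Enterocytes are produced in the crypts and mature as they move up the villus. Their apical membrane is folded into a brush border that carries disaccharidases and peptidases, below which sugars, amino acids, fat, iron and vitamins are taken up. The set of nutrients taken up differs along the intestine: iron is absorbed mainly in the duodenum, and bile acids and cobalamin in the ileum. A mature enterocyte is past the stage at which Wnt signaling acts in the crypt. Within an adenoma such cells can belong to the tumor or to neighboring villi, and the counts do not separate these sources.

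The promoters of 4 genes are shown because these genes carry the results below: Sis and Lct encode the sugar-splitting enzymes sucrase-isomaltase and lactase, Fabp1 encodes the fatty acid binding protein of the proximal intestine, and Fabp6 the bile acid binding protein of the ileum. The sequences are the 250 bases before the RefSeq start of each gene on the GRCm38.p6 assembly, 5′ to 3′ on the strand of the gene. They lie at chr3:72967864-72968113 (minus strand) for Sis, chr1:128328319-128328568 (minus strand) for Lct, chr6:71199629-71199878 (plus strand) for Fabp1 and chr11:43601563-43601812 (minus strand) for Fabp6. Capitals mark matches, on either strand, to short motifs of factors known in intestinal epithelium. GTTAAT was searched for the factor HNF1, of whose palindromic site it is one arm. For the CDX factors the search used TTTATNG. For the GATA factors it used AGATAA, and also the form TGATAA. The core of the HNF4 site was searched as CAAAGT.

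Sis: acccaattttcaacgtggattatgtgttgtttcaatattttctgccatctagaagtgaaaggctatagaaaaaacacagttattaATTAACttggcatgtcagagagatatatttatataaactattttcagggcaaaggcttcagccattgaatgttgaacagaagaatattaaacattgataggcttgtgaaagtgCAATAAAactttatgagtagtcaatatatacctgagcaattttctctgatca
Lct: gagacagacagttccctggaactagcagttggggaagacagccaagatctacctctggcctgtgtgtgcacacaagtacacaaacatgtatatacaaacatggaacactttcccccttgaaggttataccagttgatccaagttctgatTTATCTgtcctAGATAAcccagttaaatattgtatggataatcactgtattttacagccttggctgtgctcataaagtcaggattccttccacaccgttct
Fabp1: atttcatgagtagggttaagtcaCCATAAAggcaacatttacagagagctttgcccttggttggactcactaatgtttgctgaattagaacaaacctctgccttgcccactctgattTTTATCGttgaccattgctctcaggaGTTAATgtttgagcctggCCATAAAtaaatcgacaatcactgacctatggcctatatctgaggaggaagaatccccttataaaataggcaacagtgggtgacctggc
Fabp6: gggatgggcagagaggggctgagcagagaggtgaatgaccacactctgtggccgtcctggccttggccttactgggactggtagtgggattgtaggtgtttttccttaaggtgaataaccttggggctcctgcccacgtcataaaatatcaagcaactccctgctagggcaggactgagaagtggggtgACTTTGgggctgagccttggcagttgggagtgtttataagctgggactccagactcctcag

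In the Sis promoter the HNF1 motif lay at position -165 and a CDX motif at -52 from the start. The Lct promoter held the GATA motif AGATAA at -101 and -90. In the Fabp1 promoter the HNF1 motif lay at -107 and CDX motifs at -227, -133 and -89. The Fabp6 promoter held 1 match, the HNF4 core at -61. Such short motifs are common: of 32851 promoters of the same length, 6.43% held GTTAAT, 9.81% TTTATNG, 9.99% AGATAA, 7.94% TGATAA and 12.6% CAAAGT. None of the motifs overlapped another in these 4 sequences, and a match is not a binding site.

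Lef1 (chr3:131110471-131224356, mm10) was examined first. In mature enterocytes it was at or near 0, with 0, 3, 2 and 10 UMIs in the 4 libraries, that is, 0, 0.538, 0.0952 and 1.02 CPM (counts scaled to a fixed total over the summed cells of a library). For comparison, adenoma-gene cells held 9.40, 28.0, 32.5 and 22.0 CPM of Lef1. These had at least 3 UMIs of the adenoma genes and 0 of Ptprc, and did not meet the marker conditions of the enterocyte rule. In those adenoma-gene cells the kit 2 library labelled VApcMinL was higher than its ApcMin partner, against its label, whereas the kit 3 library labelled VApcMinL was lower. Counts are of 3′ ends, and which exons the floxed allele loses is not given in the sources used here, so the reads can come from a deleted allele too. Every kit 2 difference below rests on these labels and would have the opposite sign if the labels of that pair were exchanged, which was not tested. At these counts no difference in Lef1 between the groups was detectable in mature enterocytes, where the gene did not pass the filter on low counts (the log2 difference without the filter was 3.39, SE 1.87, adjusted p = 1 with edgeR).

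The libraries held from 44660305 to 128247396 UMIs in all. Mature enterocytes had medians of 9216, 10316, 26790 and 16930 UMIs per cell, so that the kit 3 cells were read more deeply. Their median mitochondrial share was 12.1%, 13.8%, 13.6% and 11.6%. Of barcodes that met the marker conditions, 31.1%, 26.3%, 67.6% and 37.0% lay above the mitochondrial limit and were not counted as cells, the highest share being in ApcMin replicate 2. The 2 kit 2 libraries had 9 cell barcodes in common, of which 3 were mature enterocytes in VApcMinL replicate 1, and 1 barcode was common to ApcMin replicate 1 and VApcMinL replicate 2; no barcode was a member in 2 libraries.

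Mature enterocytes made up very different shares of the 4 libraries, and the genotypes differed in opposite directions in the 2 kits. They were 10.3% of the cells in ApcMin replicate 1 (252 of 2441, exact 95% binomial interval 9.14% to 11.6%), 19.3% in VApcMinL replicate 1 (490 of 2534, 17.8% to 20.9%), 36.6% in ApcMin replicate 2 (757 of 2071, 34.5% to 38.7%) and 12.5% in VApcMinL replicate 2 (527 of 4217, 11.5% to 13.5%). The intervals cover counting error only. The library labelled VApcMinL was 9.01 percentage points higher in kit 2 and 24.1 points lower in kit 3 (-24.1). The mean share was 15.9% ± 4.84 (SD, n = 2) in VApcMinL and 23.4% ± 18.5 (SD, n = 2) in ApcMin, and a two-sided exact permutation test gave p = 1, where the smallest p that 2 libraries against 2 allow is 0.33. Among epithelial cells (cells with 0 UMIs of Ptprc and at least 2 of 6 epithelial genes), the shares were 12.9%, 22.9%, 40.6% and 13.5%, and the differences were 9.97 points in kit 2 and -27.1 points in kit 3 (exact permutation p = 1). The spread between libraries of 1 genotype thus exceeded the difference between genotypes. Without ApcMin replicate 2 the difference in means turned to 5.59 points higher in VApcMinL over all cells and 5.28 over epithelial cells.

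**Figure D1:**
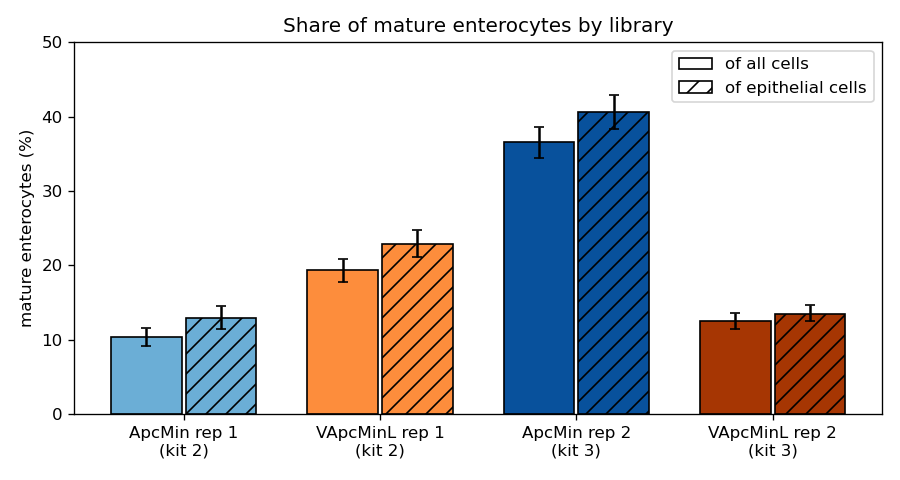
Share of mature enterocytes in each of the 4 libraries (y axis, percent), among all cells and among epithelial cells; error bars are exact 95% binomial intervals, which cover counting error only. The VApcMinL library is above its ApcMin partner in kit 2 and below it in kit 3.

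The marker genes used by the rule were distributed as follows, which describes the selection and does not test the label. Sucrase-isomaltase (Sis) was detected in 97.6%, 94.1%, 99.7% and 99.4% of the members and neprilysin (Mme), a peptidase, in 97.2%, 99.0%, 97.4% and 97.2%. Lactase (Lct), which is highest in the proximal intestine, was detected in 86.1%, 88.2%, 88.0% and 76.3%. All 5 markers were found together in 174, 329, 549 and 316 cells, and the median of their summed counts was 29, 32, 106 and 53 UMIs. The threshold of 8 UMIs falls within a gradient: cells with sums from 8 to 11 numbered 19, 37, 28 and 30, and cells with at least 3 markers and sums from 4 to 7 numbered 24, 39, 21 and 22. Fabp1, which the rule did not use, stood at 16143, 11170, 2916 and 6712 CPM in the former and at 5993, 4764, 1013 and 3446 CPM in the latter. Alpi, another enterocyte enzyme gene, was also higher in the former in every library. Other genes outside the rule were not. Apoa1 and Apoa4 went the other way in VApcMinL replicate 2 (1616 against 4186 CPM and 297 against 628 CPM). Reg1 and Reg3b did so in VApcMinL replicate 1 (5984 against 6104 CPM and 3011.5 against 4114 CPM).

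Mature enterocytes were set beside the other epithelial cells of each library. The other epithelial cells were those that met neither the enterocyte rules nor the adenoma threshold. Of the 15 genes with the highest ratio in the library where it was lowest, 5 were the genes of the rule: Leap2, which encodes a secreted peptide that blocks the ghrelin receptor, Lct, Mme, Sis and Anpep, which encodes aminopeptidase N. Because the cells were selected on enterocyte genes, these ratios are a description with no test. Reg3a, which encodes a secreted antibacterial lectin, was at 923, 174, 698 and 555 CPM against 19.97, 14.3, 52.3 and 35.1 CPM in other epithelial cells. Spink1, a trypsin inhibitor, was at 3810, 4468, 2099 and 1408 CPM against 102, 276, 207 and 111 CPM. Fabp1 was at 21667, 19777, 19861 and 16259 CPM against 1127, 1962, 2248 and 1483 CPM, that is, between 8.83 and 19.2 times as high. Its level in the members differed little between the libraries, whereas that of Reg3a was lowest in VApcMinL replicate 1.

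Several enzymes were among these genes. Aldh1a1, which makes retinoic acid from retinal, was at 568, 294, 487 and 384 CPM in mature enterocytes and at 19.4, 18.8, 46.7 and 25.5 CPM in other epithelial cells. The alcohol dehydrogenase gene Adh6a was 14.1, 9.06, 9.19 and 11.8 times as high, and the cytochrome P450 gene Cyp3a25 26.8, 19.05, 8.73 and 12.5 times as high. Monoamine oxidase B (Maob) was 19.7, 11.2, 8.61 and 10.8 times as high. Angiotensin-converting enzyme (Ace), a brush border peptidase, was at 488, 475, 344 and 280 CPM against 18.5, 26.8, 40.9 and 22.7 CPM. Cyp4v3 and 2010106E10Rik completed the list. For all of these genes but Reg3a and Adh6a, whose ratio was lowest in VApcMinL replicate 1, the ratio was lowest in ApcMin replicate 2, the library with the highest share of mature enterocytes and of barcodes above the mitochondrial limit.

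**Figure D2:**
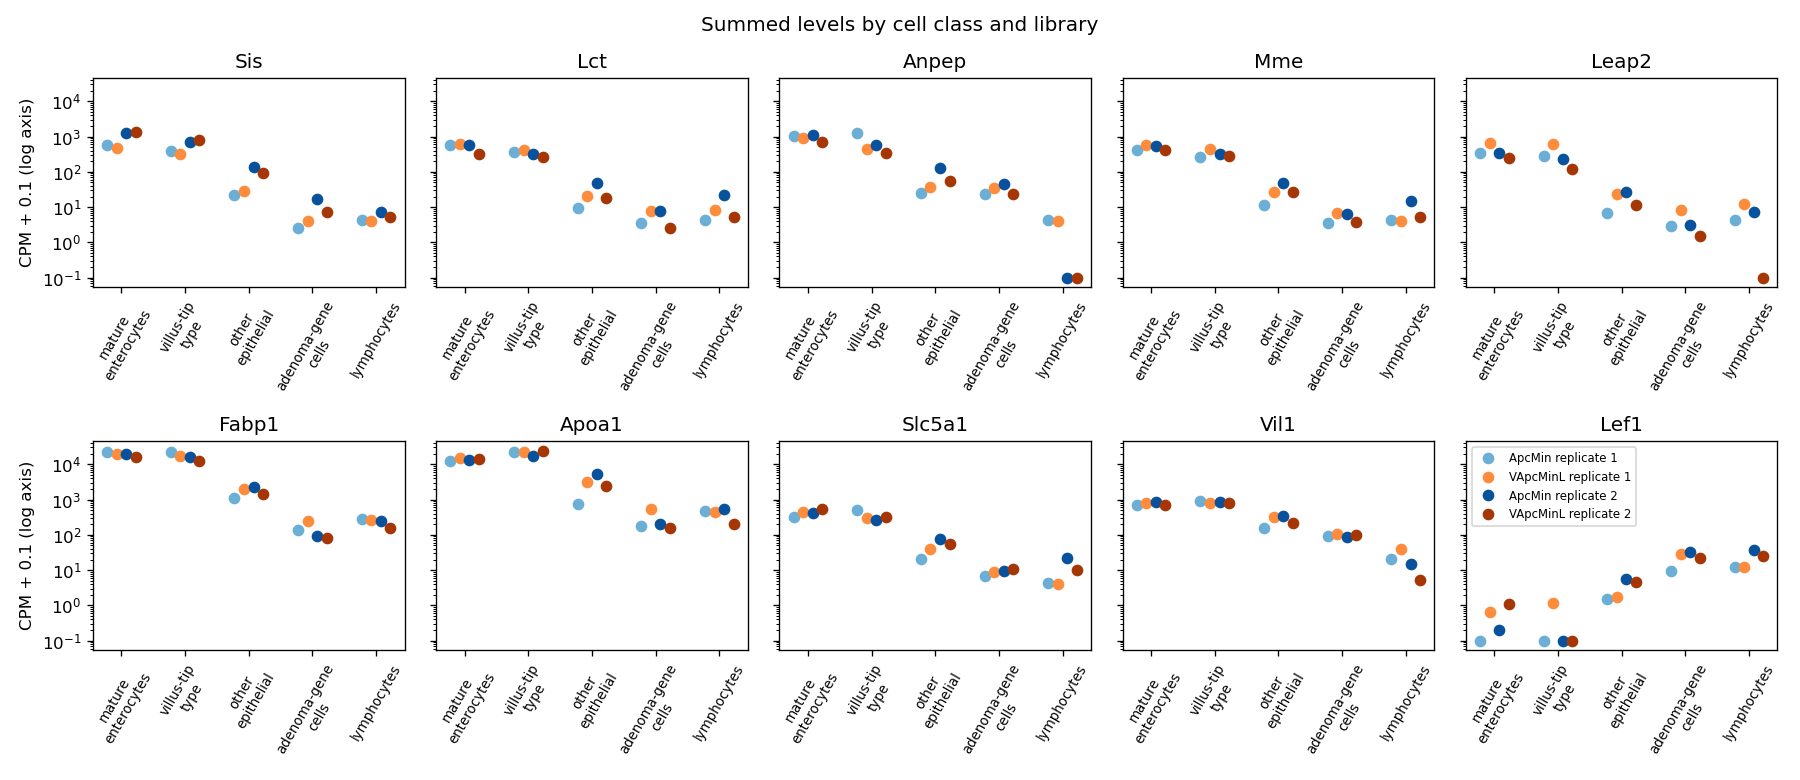
Summed levels (y axes, CPM + 0.1, log scale) of selected genes in 5 cell classes of each library (x axes); each point is 1 library. Enterocyte genes are high in mature and villus-tip type enterocytes of all 4 libraries and lower in the other classes, whereas Lef1 is at or near 0 in both enterocyte classes.

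Mature enterocytes were next set beside villus-tip type enterocytes, which met the same rule but held 2 or more of Ada, Slc28a2 and Clca4a; these numbered 4, 73, 171 and 43 cells. The comparison has no test, and the 4 cells of ApcMin replicate 1 carry little weight. The 10 genes with the largest ratio over the tip cells in all 4 libraries included enzymes, transporters and others. Pck1, the key enzyme of glucose synthesis from smaller precursors, was at 262, 316, 180 and 276 CPM against 92.3, 144, 82.1 and 108 CPM at the tip. Maoa, which breaks down serotonin and other amines, was at 661, 592, 839 and 708 CPM against 185, 275, 493 and 304 CPM. The same direction was found for the amino acid transporter Slc6a20a, the chloride and bicarbonate exchanger Slc26a3, the glutathione transferase Gstm3, and Aldh1a1, Maob, Akr1c19, Fam213a and Epb41l3.

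Genes that were lower in mature than in villus-tip type enterocytes included 2 of the rule, Clca4a and Ada, and 8 others. Ly6d, a small surface protein, was at 14.5, 25.1, 4.48 and 11.7 CPM against 231, 322, 149 and 837 CPM. Pmp22, a membrane protein of cell junctions, was at 13.8, 52.6, 58.3 and 56.9 CPM against 708, 480, 490 and 674 CPM. Lgals3, which encodes the sugar-binding protein galectin-3, was at 575, 923, 820 and 650 CPM against 1785, 2881, 3508 and 2695 CPM. Tm4sf4, Gprc5a, Arl14, Ifrd1 and S100a11 went the same way. These genes were chosen for being lower in the summed level of all 4 libraries, so their direction is fixed by that choice. Overlap between single cells of the 2 classes was not measured.

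Variation among the members was measured within each library. Each cell was thinned to 2000 UMIs and genes were ranked by the Fano factor (variance over mean, near 1 for counting noise alone) among 3249 genes. The median Fano factor was 1.03 to 1.05. No trend with the mean level was removed, so abundant genes can rank higher at the same relative spread. Reg3b, an antibacterial lectin, had Fano factors of 23.9, 21.4, 45.1 and 37.3, and Reg1, a related secreted protein, 19.9, 18.0, 27.3 and 33.4. Apoa1 and Apoa4, the apolipoproteins that enterocytes load onto fat particles, had factors of 11.8, 21.6, 17.8 and 23.9 and of 10.3, 14.7, 10.4 and 16.01, respectively. Fabp1, Fabp2, the retinol carrier Rbp2, the iron storage gene Fth1, the calcium carrier S100g, Reg3g and Selenop were also among the first 15 genes. Gm42418, a transcript overlapping ribosomal RNA, differed by kit, with factors of 5.19 and 5.81 in kit 2 and of 176 and 127 in kit 3.

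The goblet cell genes Tff3 and Zg16 stood first and second, through a few cells. Zg16, which encodes a lectin of the mucus layer, was at 558, 5363, 6494 and 6129 UMIs in all members, and 1 cell in each library held 65.2%, 32.7%, 54.0% and 51.9% of these. For Tff3, a mucus peptide, the top cell held 39.6%, 32.4%, 23.6% and 51.0%. Cells in which the markers of goblet, Paneth and enteroendocrine cells together made up more than 2% of the UMIs numbered 2, 7, 8 and 3. They met the enterocyte rule, and whether such droplets held 2 cells was not tested. The summed level of the 7 goblet markers over all members was 1650, 2636, 1034 and 1341 CPM, and that of the 7 Paneth markers 462, 113, 121 and 167 CPM.

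Across single mature enterocytes, brush border enzymes went with transporters and against defence genes. In cells thinned to 2000 UMIs, the summed brush border enzymes that the rule did not use correlated with sugar, amino acid and peptide transporters at Spearman's rho of 0.48, 0.51, 0.57 and 0.63. They also correlated with genes of MHC class I presentation, which displays peptides to cytotoxic T cells, at 0.49, 0.58, 0.59 and 0.60. Against the list of lower villus and defence genes (Reg1, Reg3 genes and others) rho was -0.20, -0.42, -0.42 and -0.19. Apoa4 behaved likewise, with rho of 0.58, 0.65, 0.51 and 0.51 against MHC class I genes and of -0.29, -0.44, -0.38 and -0.16 against the defence list. Fabp1 did not follow the brush border enzymes (0.07, -0.06, -0.07 and 0.02). The brush border enzymes also correlated with the mitochondrially encoded genes, at 0.56, 0.46, 0.26 and 0.40, and the part of RNA quality in these relations was not tested. These are descriptions over 252, 490, 757 and 527 cells that share a library and an equal depth, and the shares of a fixed total are not independent of each other.

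A distinct set of mature enterocytes carried ileal genes, and it was found in the kit 3 libraries only. Fabp6, the bile acid carrier of ileal enterocytes (chr11:43596049-43601540), had at least 5 UMIs in 0 of 252 members of ApcMin replicate 1, which allows a share of up to 1.19%, in 0 of 490 members of VApcMinL replicate 1, which allows up to 0.612%, in 61 of 757 members (8.06%) of ApcMin replicate 2 and in 39 of 527 (7.40%) of VApcMinL replicate 2. These Fabp6-high cells held 99.2% of the Fabp6 UMIs of the members in each of the 2 libraries. Of the 61 cells, 58 held 20 UMIs or more, and of the 39 cells, 35 did, so few cells lay near the threshold. Members with 1 to 4 UMIs numbered 209 and 45. Lymphocytes were taken as cells with at least 1 Ptprc UMI, 0 of Epcam and at least 2 of a list of T and B cell genes. The list was Cd3e, Cd3d, Cd3g, Trbc2, Cd7, Cd79a, Cd79b and Ms4a1. After thinning, 11.6% and 8.92% of the members had a Fabp6 UMI against 15.2% and 5.36% of lymphocytes (33 and 56 cells, median depths before thinning 3586 and 2705.5 UMIs), whereas 0 lymphocytes in either library held 5 or more; low counts of Fabp6 are therefore read as background. Over all barcodes, Fabp6 totalled 53 and 50 UMIs in the kit 2 libraries and 59102 and 20895 in kit 3. The promoter of Fabp6 is the one printed above with an HNF4 core match alone.

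Genes that the selection of Fabp6-high cells did not use differed along with it, and these were chosen for naming from lists of ileal and proximal genes and after their values had been seen. Slc10a2, the bile acid importer of the ileum, was at 759 CPM in the Fabp6-high and 1.68 CPM in the other members of ApcMin replicate 2, and at 416 and 8.71 CPM in VApcMinL replicate 2. Slc51a and Slc51b, the 2 subunits of the bile acid exporter, were at 1318 against 234 CPM and 709 against 140 CPM in ApcMin replicate 2, and at 866 against 275 CPM and 490 against 139 CPM in VApcMinL replicate 2. Cubilin (Cubn), the ileal cobalamin receptor, was at 449 against 85.5 CPM and at 245 against 56.9 CPM. In both libraries the bile acid and cobalamin genes were thus higher in the Fabp6-high cells. Fgf15, the hormone by which the ileum signals bile acid load to the liver, was at 135 against 0.841 CPM in ApcMin replicate 2 and at 6.58 CPM against 0 in VApcMinL replicate 2.

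Several proximal genes went the other way in the same cells. Fabp1 was at 1239 against 20575 CPM in ApcMin replicate 2 and at 4321 against 17049 CPM in VApcMinL replicate 2. Lct was at 47.7 against 582 CPM and at 132 against 338 CPM, and the apolipoprotein gene Apoa4 at 366 against 3429 CPM and at 1213 against 3620 CPM. Gata4, a transcription factor of the duodenum and jejunum, was at 2.58 against 43.3 CPM and at 18.1 against 40.6 CPM, and Onecut2, also proximal, at 5.16 against 144 CPM and at 39.5 against 143 CPM. Sis was at 1359 against 1244 CPM and at 2143 against 1309 CPM, so the Fabp6-high cells were not low in all enzymes of the rule. The duodenal iron genes did not follow: Cybrd1 was at 1.29 against 9 CPM in ApcMin replicate 2 but at 67.5 against 54.1 CPM in VApcMinL replicate 2, and Slc40a1 at 69.6 against 55.8 CPM and at 39.5 against 88.8 CPM. Reg3b was at 30442 against 3355 CPM in ApcMin replicate 2 and at 10552 against 7995 CPM in VApcMinL replicate 2. Fabp1, Lct, Apoa4, Gata4 and Onecut2 differed less in VApcMinL replicate 2 than in ApcMin replicate 2; that difference was not tested. Fabp6-high cells had median depths of 6993 and 15227 UMIs, against 27570 and 17006 in the other members.

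**Figure D3:**
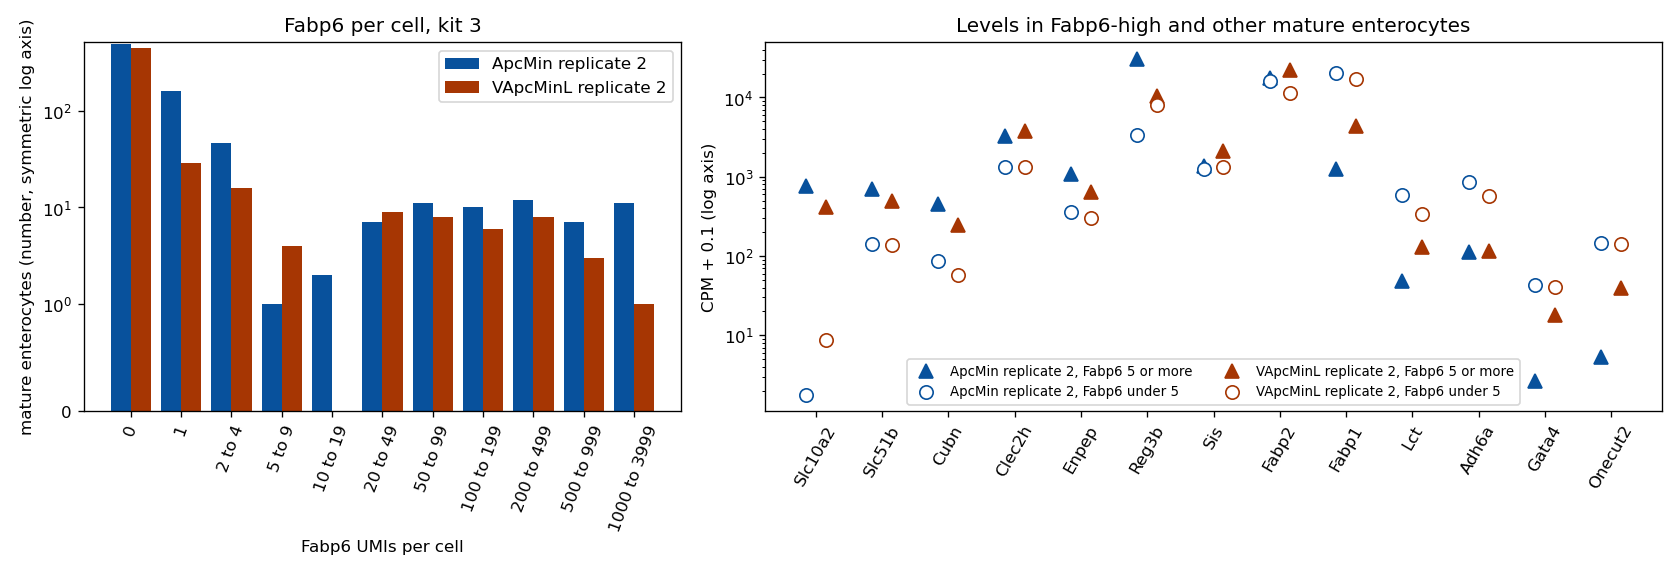
Left, number of mature enterocytes (y axis, symmetric log) by Fabp6 UMIs per cell (x axis) in the 2 kit 3 libraries; right, levels (y axis, CPM + 0.1, log scale) of ileal and proximal genes in Fabp6-high and other members of those libraries. Ileal genes such as Slc10a2 are higher and proximal genes such as Fabp1 and Onecut2 lower in the Fabp6-high cells of both libraries.

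Without the Fabp6-high cells the number of called genes between the genotypes stayed at 1. The labels do not give the part of the small intestine from which the tumors came, and the study describes tumors of similar size and place. Kit, replicate number and the presence of ileal cells cannot be told apart in this design.

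With the kit as a block, 1 gene was called between the genotypes in mature enterocytes, and that gene was sex-linked. Without the block 0 genes were called. UMIs were summed per library and tested with edgeR's quasi-likelihood test with the kit as a block, over 10529 genes. With Benjamini-Hochberg adjustment at 0.05 this called 1 gene, that is, 0.0095% of the genes tested. At a nominal p (unadjusted) under 0.05, 104 genes stood out (0.988% of those tested), 74 of them higher in VApcMinL (0.703%) and 30 lower. These shares belong beside every count of genes at a nominal p under 0.05 in the gene lists below. DESeq2 called 5 genes. The median log2 difference over all genes was 0.00865, and 3928 genes (37.3%) had the same direction in both kits. In simulated counts of this comparison with 200 genes changed by 1.5 on the log2 scale, edgeR recovered 186 at a dispersion of 0.02 but 46 at 0.1 (10315 and 10285 genes run), so the small number of calls does not show that the genotypes are alike.

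The called gene was Xist, the RNA that silences 1 X chromosome in female cells (chrX:103460366-103483254, mm10). It was at 0, 379, 0.33 and 122 CPM, higher in both libraries labelled VApcMinL (log2 difference 9.02, SE 0.50, adjusted p = 0.0206 with edgeR). The direction held with each library left out in turn, in fits that had no kit block. With all 4 libraries and no block it held too, but the call was lost (adjusted p = 0.711, edgeR). The labels give all 4 libraries as male. Of the Y-linked genes, Ddx3y was at 32.7, 0, 26.0 and 18.3 CPM and Eif2s3y at 29.0, 0, 36.4 and 22.9 CPM. In VApcMinL replicate 1, 464 of 490 members held Xist and no Y-linked UMI, 0 held a Y-linked UMI alone and 1 held both. In VApcMinL replicate 2, 174 of 527 members held Xist alone, 224 a Y-linked UMI alone, 20 both and 109 neither. In the libraries labelled ApcMin, 122 of 252 and 619 of 757 members held a Y-linked UMI alone, 0 and 1 held Xist alone, and 0 and 5 held both. The VApcMinL libraries thus held cells with Xist and the ApcMin libraries almost none, against the labels of sex, and the genotype and this sex difference cannot be told apart in the sums.

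VApcMinL replicate 2 held members of both kinds, which allowed their levels to be set side by side within 1 library, with no test. Clca4a, a villus-tip gene of the rule, was at 51.5 CPM in the Xist-only and 6.09 CPM in the Y-only members. However, 3.42% of this library's members held a Clca4a UMI, and 88 of their 223 UMIs were in 1 cell. Lct was at 461 and 236 CPM, and Reg1 at 4383 and 10318 CPM. Cybrd1 was at 39.7 and 56.4 CPM, and Cd74 at 76.5 and 123 CPM. Both kinds of cells thus carried Cybrd1 and Cd74, which are described next, and both genes were lower in the Xist-only cells. Among the other MHC class II genes compared, H2-Ab1 was higher in the Xist-only cells (43.2 against 35.6 CPM), whereas H2-Aa, H2-Eb1 and H2-DMa were lower. In this library 86 of the 538 Cybrd1 UMIs were in 1 cell. The part of sex in the differences of these genes between the libraries was not tested.

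Iron absorption genes were among the genes with the smallest unadjusted p, though none passed the adjusted threshold. Cybrd1 (chr2:71117923-71142926), the duodenal reductase that makes dietary iron available for uptake, was at 25.7, 109, 8.72 and 54.9 CPM. Both VApcMinL libraries were above both ApcMin libraries. Its log2 difference was 2.40 (SE 0.23), being 2.1 in kit 2 and 2.62 in kit 3, and edgeR gave an unadjusted p of 4.67e-05 and an adjusted p of 0.228. DESeq2 gave an adjusted p of 8.9e-07, whereas without the block edgeR called 0 genes. Slc40a1, the exporter ferroportin, was at 123, 283, 56.3 and 85.8 CPM (log2 difference 0.91, SE 0.23, edgeR adjusted p = 1). The higher level in VApcMinL held within each kit (0.60 in kit 3), but the 4 libraries overlapped. The difference turned to -0.12 without VApcMinL replicate 1. That fit had no kit block, so it set a kit 3 library against libraries of both kits. At a mitochondrial limit of 10% the difference was 0.27.

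Of the 8 iron genes, 3 were higher in VApcMinL in both kits, Cybrd1, Slc40a1 and Hmox1, which encodes the heme-splitting enzyme and was at 1.49, 3.59, 1.33 and 2.35 CPM (4 to 28 UMIs a library). The importer Slc11a2 was at 256, 103, 95.9 and 299 CPM, lower in VApcMinL in kit 2 (-1.28 on the log2 scale) and higher in kit 3 (1.64). The transferrin receptor gene Tfrc was at 164, 32.6, 95.3 and 192 CPM, with within-kit differences of -2.29 and 1.00. Fth1, the heavy chain of ferritin, was at 14146, 22656, 15273 and 14431 CPM, and hephaestin (Heph), which oxidizes exported iron, at 124, 166, 109 and 94.7 CPM. Of the 8 iron genes all were tested, 0 were called and 2 had a nominal p under 0.05, both higher in VApcMinL, where 0.703% of all genes did so. Their median log2 difference was 0.26. Ncoa4, which directs ferritin to breakdown, was at 4.47, 17.4, 72.0 and 131 CPM (log2 difference 1.21, SE 0.30, edgeR adjusted p = 1), with a larger gap between kits than between genotypes.

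Most of the Cybrd1 UMIs came from a small set of members. Cells with at least 5 Cybrd1 UMIs numbered 4, 34, 7 and 23 (1.59%, 6.94%, 0.925% and 4.36% of the members) and held 71.0%, 86.6%, 70.5% and 87.0% of the Cybrd1 UMIs. The difference in Cybrd1 between the libraries was thus also one in the number of Cybrd1-high cells. In the other members Cybrd1 was at 7.58, 15.5, 2.61 and 7.47 CPM. After thinning, 4.37%, 9.18%, 0.925% and 5.50% of the members had a Cybrd1 UMI, and of the lymphocytes 0%, 1.18%, 0% and 0% (63, 85, 33 and 56 cells).

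The genes named for the Cybrd1-high cells were chosen after their values had been seen. Slc40a1 was at 1257, 1323, 460 and 671 CPM in these cells and at 103, 212, 50.7 and 59.1 CPM in the other members. Slc11a2 was at 3387, 313, 1207 and 2414 CPM against 200, 89.1, 80.4 and 202 CPM. S100g, the calcium-binding protein of the duodenum, was at 3344, 26134, 865 and 970 CPM against 766, 3147, 517 and 376 CPM. All 3 were higher in the Cybrd1-high cells of every library. Aminopeptidase N (Anpep), a gene of the rule, was at 0, 61.5, 197 and 157 CPM against 1027, 961, 1089 and 724 CPM, and the peptidase Enpep at 63.9, 67.1, 79.6 and 115 CPM against 364, 242, 391 and 334 CPM. The Cybrd1-high cells were thus low in these peptidases in each library, while Leap2 (575, 886, 432 and 563 CPM against 337, 648, 349 and 240 CPM) was higher. In kit 3, 0 and 1 cells were both Cybrd1-high and Fabp6-high.

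**Figure D4:**
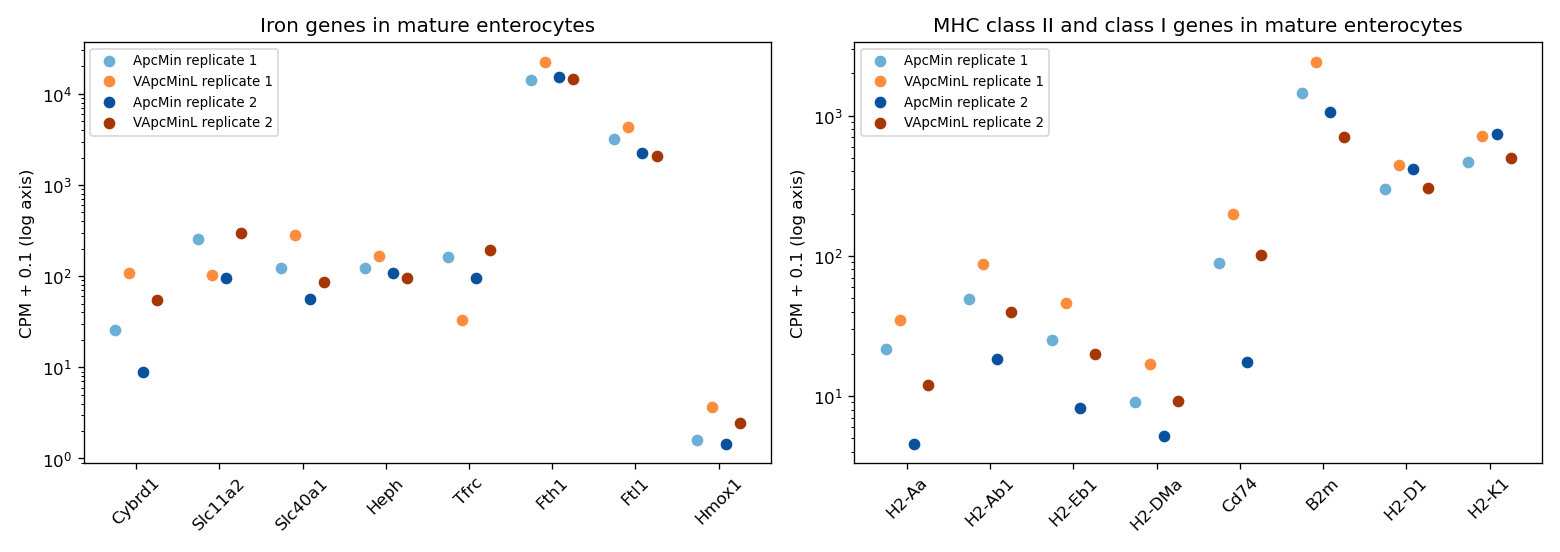
Levels (y axes, CPM + 0.1, log scale) of iron genes (left) and of MHC class II and class I genes (right) in the mature enterocytes of each library; each point is 1 library. Cybrd1, Cd74 and H2-Ab1 are higher in the VApcMinL library of each kit, whereas Slc11a2 and Tfrc are lower in kit 2 and higher in kit 3.

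MHC class II genes, which present peptides to helper T cells and which enterocytes can express, were higher in the libraries labelled VApcMinL in both kits, without passing the adjusted threshold. Of the 8 genes of the list, 6 were tested, 0 were called and 5 had a nominal p under 0.05, all higher in VApcMinL, where 0.703% of all genes did so. The 6 tested genes had a median log2 difference of 1.03, with medians of 0.889 in kit 2 and 1.18 in kit 3, and all were higher in VApcMinL in both kits. The summed level was 202, 393, 55.9 and 185 CPM. Kit 2 libraries were higher than kit 3 libraries, and within each kit VApcMinL was higher. At a mitochondrial limit of 10% the log2 differences were smaller than in the main fit. They were 1.28 for Cd74, 0.50 for H2-Ab1, 0.65 for H2-Eb1, 0.63 for H2-Aa and 0.50 for H2-DMa. With thinned cells H2-Aa fell to 0.19, while Cd74 (1.80), H2-Ab1 (0.81) and H2-Eb1 (1.12) moved less.

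The invariant chain gene Cd74 was at 89.3, 199, 17.5 and 102 CPM (log2 difference 1.86, SE 0.35, edgeR adjusted p = 1). H2-Ab1 was at 49.1, 87.9, 18.3 and 39.5 CPM (0.99, SE 0.19) and H2-Eb1 at 24.9, 46.3, 8.14 and 19.8 CPM (1.11, SE 0.22). H2-Aa was at 21.6, 34.6, 4.43 and 11.8 CPM. Without VApcMinL replicate 1 and the kit block its difference turned to -0.10, against a within-kit difference of 1.37 in kit 3. The fits with 1 library left out had no kit block, so their differences also carry that between the kits. Leaving out 1 library moved the difference of Cd74 between 0.72 (without ApcMin replicate 2) and 3.18 (without ApcMin replicate 1), with 0.88 without VApcMinL replicate 1. It moved that of H2-Ab1 between 0.20 (without VApcMinL replicate 1) and 1.88 (without ApcMin replicate 1), with 0.35 without ApcMin replicate 2, and that of H2-Eb1 between 0.27 and 2.09 in the same 2 settings. After thinning, 19.05%, 20.2%, 2.38% and 12.9% of mature enterocytes and 42.9%, 15.3%, 24.2% and 8.93% of lymphocytes held a Cd74 UMI. The lymphocytes were chosen with B cell genes among others and can hold Cd74 of their own. Their share therefore does not give the background of Cd74.

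Markers of leukocytes moved with the libraries as well. Lymphocyte and plasma cell markers summed to 688, 167, 8.86 and 60.5 CPM in the mature enterocytes, most of it Jchain, the joining chain of secreted antibodies, at 645, 124, 6.19 and 54.7 CPM. In kit 3 these levels were higher in VApcMinL, as for MHC class II, and in kit 2 they were lower. In VApcMinL replicate 2, 460 of the 536 Jchain UMIs were in 1 cell. Of the 9 markers 8 are in the tables, and 0, 0, 2 and 0 of these were at 0. The myeloid markers summed to 27.5, 30.0, 1.76 and 2.35 CPM, with 0 of 6 at 0 in each library. The red blood cell markers summed to 669, 34.3, 0.714 and 4.70 CPM and the stromal and endothelial markers to 71.1, 26.0, 2.62 and 28.0 CPM. The part of RNA from other cells in the MHC class II levels was not tested.

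MHC class I genes behaved differently: all 12 tested were higher in VApcMinL in kit 2 and 0 of 12 in kit 3, with median log2 differences of 0.583 and -0.430. B2m, the light chain of all class I molecules, was at 1456, 2430, 1065 and 700 CPM. Its log2 difference over both kits was 0.08 (SE 0.41, edgeR adjusted p = 1), so that the kits cancelled. The interferon response genes showed the same split, 9 of 12 being higher in VApcMinL in kit 2 and 1 of 12 in kit 3. The 13 mitochondrially encoded genes had median differences of 0.269 in kit 2 and -0.324 in kit 3. The median mitochondrial shares given above are counted from mitochondrial genes too, so the 2 are not separate results.

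**Figure D5:**
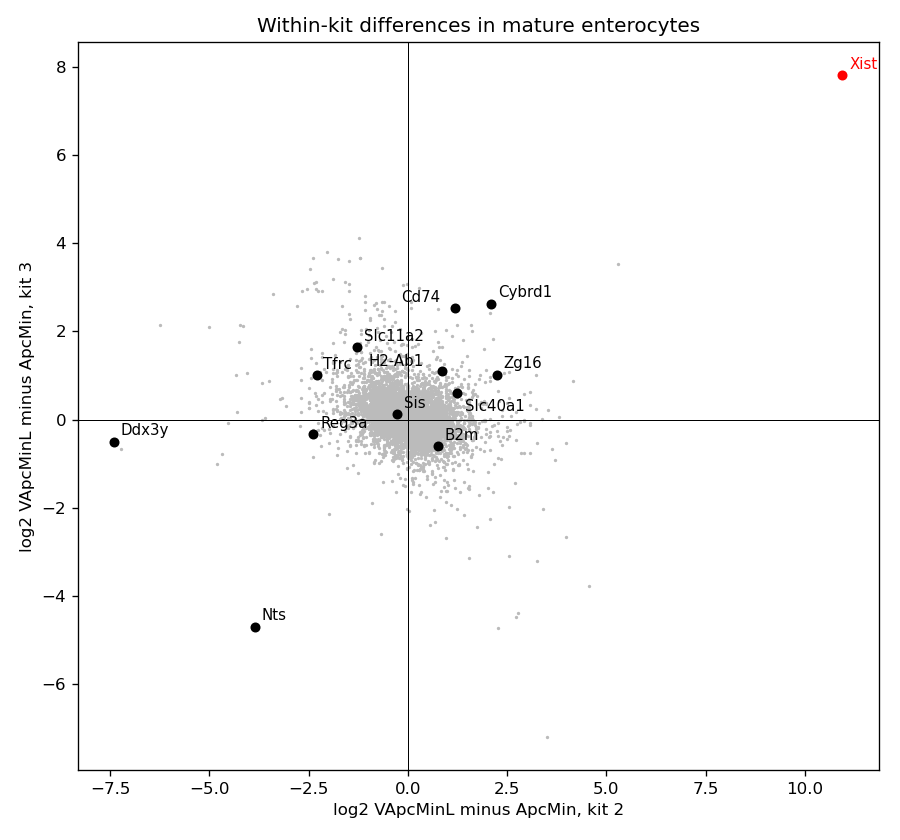
Within-kit log2 differences of VApcMinL minus ApcMin in mature enterocytes, kit 2 on the x axis and kit 3 on the y axis; each gray point is a tested gene, black points are named genes and the red point is Xist, the called gene. Cybrd1 and the MHC class II genes Cd74 and H2-Ab1 lie in the upper right, higher in VApcMinL in both kits, and B2m of class I lies in the lower right, higher in kit 2 and lower in kit 3.

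Genes of absorptive functions were not called between the genotypes, but their RNA levels split by kit. Of 21 brush border enzymes, 0 were called and 1 had a nominal p under 0.05, where 0.988% of all genes did, with a median log2 difference of -0.07. The list holds genes of the rule, which chose the cells, so its counts and medians are in part a description. In VApcMinL 14 of them were higher in kit 2 and 4 in kit 3, with medians of 0.401 and -0.303. Of the 16 microvillus genes 13 were higher in kit 2 and 4 in kit 3, and of the 24 lipid absorption genes 19 and 9. Intestinal alkaline phosphatase (Alpi) was at 605, 1197, 569 and 538 CPM. Of the 16 genes of microvillus structure, 0 had a nominal p under 0.05, and villin (Vil1), the actin bundler whose promoter drives the Cre transgene, was at 687, 790, 838 and 709 CPM. Of 24 lipid absorption genes 0 were called and 1 had a nominal p under 0.05; Apob, the backbone of fat particles, was at 1135, 1559, 2014 and 1670 CPM and Mttp, which loads it with fat, at 1276, 1363, 1024 and 844 CPM. For Vil1, Apob and Mttp the libraries of the 2 genotypes overlapped, and the high value of Alpi was that of VApcMinL replicate 1 alone.

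Genes for uptake and metabolism of sugars and amino acids were not called either. Of 16 transporters, 0 had a nominal p under 0.05. The sodium-glucose transporter Slc5a1 was at 318, 436, 410 and 523 CPM (log2 difference 0.41, SE 0.23, edgeR adjusted p = 1), and the peptide transporter Slc15a1 at 151, 205, 150 and 152 CPM. Slc2a2, which passes glucose on to the blood, was at 61.0, 143, 100 and 110 CPM. Of the 7 genes of fructose and glucose metabolism 0 had a nominal p under 0.05. Cyp3a11, a drug-metabolizing cytochrome P450, was at 370, 716, 285 and 408 CPM, higher in VApcMinL within each kit (0.75, SE 0.25, edgeR adjusted p = 1), and was 1 of 18 xenobiotic genes with a nominal p under 0.05. Transcription factors of the intestine (17 genes, 0 with a nominal p under 0.05) included Hnf4a at 180, 183, 157 and 147 CPM.

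Defence genes split by kit. Reg3b was at 6986, 3437, 4356 and 8153 CPM and Reg3g at 3518, 1606, 1193 and 2465 CPM, both lower in VApcMinL in kit 2 and higher in kit 3. Reg1 was at 4522, 5781, 5339 and 8367 CPM, and Reg3a at 923, 174, 698 and 555 CPM. Of 13 tested genes of the defence list, 0 were called and 2 had a nominal p under 0.05, both lower in VApcMinL. Over all genes, 0.988% had a nominal p under 0.05 in either direction. Among the Wnt target and adenoma genes 17 of 20 were tested, 0 were called and 1 had a nominal p under 0.05; the list, which holds 3 genes of the rule, summed to 97.9, 123, 94.96 and 130 CPM.

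Other genes with the smallest unadjusted p, among those with the same direction in both kits and at least 50 CPM in either group, are given next, and none passed the adjusted threshold. Foxq1, a transcription factor, was at 31.3, 74.3, 19.5 and 38.7 CPM (log2 difference 1.12, SE 0.20), and Cym, a milk-clotting protease, at 39.4, 61.9, 36.4 and 59.2 CPM. Gkn3, a gene of the stomach lining, was at 35.7, 81.1, 12.0 and 24.8 CPM (1.12, SE 0.19). Without VApcMinL replicate 1 and the kit block the difference was 0.04 for Gkn3 and 0.57 for Foxq1. Over the libraries left out, also with no block, they reached 2.22 and 1.62. Wfdc18, a small secreted protein, was at 46.9, 143, 12.95 and 20.8 CPM. Its difference turned to -0.54 without VApcMinL replicate 1 and the kit block, against 0.67 within kit 3. For Zg16, at 208, 962, 309 and 626 CPM, the log2 difference fell from 1.62 to 0.52 without the cells rich in goblet, Paneth or enteroendocrine genes. Nts, a gut hormone gene chosen for naming after its value was seen, was at 2.60, 0, 21.1 and 0.613 CPM, but 426 of the 442 UMIs in ApcMin replicate 2 were in 1 cell.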

How the data were processed

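Libraries of adenomas, 2 of ApcMin and 2 of VApcMinL, were analysed. The authors deposited raw UMI counts per gene and barcode for all barcodes. The submitters' processing notes name Cell Ranger 2.1.1, Seurat 3.1.1 and mm10, while the kit 3 matrices carry a later Cell Ranger header and a longer gene table. Genes were joined by identifier, which left the 27514 common to all tables, and CPM are counts scaled to a fixed total over these. Libraries held from 44660305 to 128247396 UMIs.

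The members, gene lists and comparisons were chosen with earlier results of these data known. UMIs were summed per library over mature enterocytes, since cells are not replicates, and tested with edgeR 4.0.16 (quasi-likelihood, TMM, filterByExpr with a minimum count of 10, Benjamini-Hochberg, threshold 0.05) in R 4.3.3, with the kit as a block. Within-kit log2 differences used a prior count of 2. The labels tie each replicate number to a kit, so the numbers pair the libraries. Within a kit, the deviations of the 2 libraries from their own group's mean correlated (r = 0.49) over 10529 genes, which are not independent. With 2 libraries a group this is a single value, the same for both kits by arithmetic. For shares, the test was a two-sided exact permutation test, with exact (Clopper-Pearson) 95% intervals. Beside a count of 0 the limit is 3 counts of the total. Classes and single-cell variation were described without tests, the latter in cells thinned to 2000 UMIs. Class ratios used a pseudocount of 1 CPM. Doublets were not removed, and Scrublet in scanpy 1.11.5 served as an alternative, at 0.8% per 1000 cells. Genes sharing reads with near-identical copies, such as those of MHC class I, are uncertain.

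Genes were named by rule: Lef1 and the rule's genes; up to 4 genes of each list with the highest mean CPM; called genes; the 10 smallest unadjusted p values with the same direction in both kits and 50 CPM or more on the higher side; the 15 highest class ratios; the 15 lowest mean ranks of the Fano factor; and 10 genes each way against villus-tip type cells. Any further gene was picked with its values known. The edgeR step was tested on simulated counts of this comparison, where it made 0 calls with no gene changed and 6 false calls beside the 186 recovered (10315 genes run).

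The alternatives were: no replicate block, DESeq2 size factors, DESeq2 1.42.0, no filter on low counts, each library left out, thinned cells, a mitochondrial limit of 10%, a floor of 5000 UMIs, a marker sum of at least 16, and removal of Scrublet doublets. The gene fits with a library left out had no kit block. Leaving out Fabp6-high cells and cells rich in markers of secretory cells was added after the data had been seen. The promoters are from RefSeq. No columns of other samples were found.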

Additional observations from a re-analysis of the deposited data

Results flagged for a closer look

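Several values differed in direction between the 2 kits, that is, 1 library pair each way; the differences between the kits were not tested. The share of mature enterocytes among all cells was 9.01 percentage points higher in VApcMinL in kit 2 and stood at -24.1 points in kit 3, and among epithelial cells at 9.97 and -27.1 points. The median log2 difference of MHC class I genes was 0.583 in kit 2 and -0.430 in kit 3, and that of the mitochondrially encoded genes 0.269 and -0.324. Slc11a2 stood at -1.28 and 1.64, and Tfrc at -2.29 and 1.00. With 1 library of each genotype in each kit, a library, its kit and its tumors cannot be told apart.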

How the results depend on the processing

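The share of mature enterocytes was lower on average in VApcMinL under all alternatives but 1: without ApcMin replicate 2 it turned to 5.59 points higher among all cells and 5.28 among epithelial cells, and over the libraries left out the difference ran from -20.6 to 5.59 and from -22.4 to 5.28 points, with no test. With a mitochondrial limit of 10% it was -2.43 and -3.30 points. The number of called genes was 1 (Xist) in the main analysis, with DESeq2 size factors, thinned cells, a floor of 5000 UMIs, a marker sum of at least 16, Scrublet, and without Fabp6-high or secretory-rich cells. It was 0 without the replicate block, which is the pairing by kit (32 genes at an unadjusted p under 0.05 with edgeR). The fits with each library left out had no block either and leave 1 library in a group, so only their differences are given. DESeq2 called 5 genes (Cybrd1, Xist, Zg16, Nts and Cd74), edgeR without the filter on low counts 52 (31 higher) and with a mitochondrial limit of 10% 43 (14 higher). The causes were not tested. The block changed no other call. The Lef1 difference in means of 0.732 CPM became 0.180 with thinned cells. Zg16 turned to -1.03 at the mitochondrial limit of 10% (adjusted p = 0.00788 with edgeR). Without VApcMinL replicate 1 and the block, Wfdc18 turned to -0.54 (its range with each library left out was up to 2.75). Slc40a1 turned to -0.12 (up to 1.80) and H2-Aa to -0.10 (up to 2.46) in that fit. Without VApcMinL replicate 2 and the block, Ncoa4 turned to -1.11 (up to 3.96). A lone library was set there against libraries of both kits. Within the kit pair left whole, the differences were 0.67, 0.60 and 1.37 for Wfdc18, Slc40a1 and H2-Aa (kit 3). That of Ncoa4 was 1.94 (kit 2). Cybrd1 kept its direction in every setting run, with adjusted p from 5.3e-17 without the filter to 1.00 with a library left out. With 2 libraries a group and 1 pair a kit, the exact test of shares cannot pass a threshold of 0.05, and genes that vary more than the low dispersion simulated were seldom recovered (46 of 200 at 0.1). Kit 2 members were read less deeply than kit 3 members, so their low genes are less certain.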

Other observations

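Cell cycle genes of the mature enterocytes split by kit. The 13 cell cycle genes summed to 291, 172, 256 and 299 CPM in the 4 libraries, in the order used above, and 1 of 13 was higher in VApcMinL in kit 2 against 11 of 13 in kit 3; 0 were called by edgeR, and 0 had an unadjusted p under 0.05. Of the 15 epithelial junction genes 0 were called or had an unadjusted p under 0.05, with a summed level of 5011, 5054, 5925 and 5570 CPM. Tmprss15, the enterokinase that starts the activation of pancreatic proteases in the duodenum, was at 3.72, 44.3, 11.05 and 12.97 CPM, so its high value was that of 1 library, VApcMinL replicate 1 (log2 difference 1.51, SE 0.71, edgeR adjusted p = 1). Tmprss15 was chosen after its values were seen.

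The 8 tested villus-tip genes, 2 of which the rule limits, were all higher in VApcMinL in kit 2 and 1 of 8 was in kit 3, with median log2 differences of 0.91 and -0.39. Enpp3, which splits nucleotides at the cell surface, was at 14.1, 74.1, 74.3 and 56.7 CPM. The 5 tested enteroendocrine markers had a median log2 difference of 1.09 in kit 2 and -2.33 in kit 3, on summed levels of 45.03, 80.7, 116 and 26.1 CPM. Single cells carried much of this: 1 cell held 105 of the 106 Chgb UMIs in VApcMinL replicate 1, and in ApcMin replicate 2 the top cell held 464 of 491 for Chgb, 402 of 630 for Chga and 575 of 1228 for Sct.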
